A study of Mus musculus with 4 samples.

Results

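The EGF receptor family of the colon epithelium was followed here through 10 genes: the receptors Egfr, Erbb2 and Erbb3, the ligands Areg, Ereg, Hbegf, Btc and Tgfa, and the inhibitors Lrig1 and Errfi1. They were taken by gene symbol, and each gene was represented by the transcript with the highest mean over the 4 libraries. All 10 were found among the 25796 genes of the deposited table. The libraries were inputs, that is RNA not enriched for N6-methyladenosine (m6A), from colon epithelial cells that a chelating buffer had released from mouse colon. There were 2 libraries of wild-type (WT) genotype and 2 labelled Ythdf1 KO, a knockout of a cytoplasmic protein that binds m6A in mRNA. No treatment, age, strain or knockout allele is named in the labels, and the sources used here do not tell if replicate libraries are from different mice. The p-values therefore measure only the spread between these libraries, which may be technical.

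EGF receptors are tyrosine kinases that pair up when a ligand binds and then activate the RAS-MAPK and PI3K-AKT pathways. The ligands are made as membrane proteins and are released by proteases, and several of them also bind heparan sulphate. Erbb2 has no known soluble ligand and Erbb3 has little kinase activity of its own, so both act mainly as partners in pairs of receptors. In the intestine this signalling drives crypt cells to divide, and it is restrained by Lrig1, a membrane protein found on crypt stem cells, and by Errfi1 (also called MIG6), a cytoplasmic protein that binds and blocks the active kinase and is itself induced by the signal.

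The comparison asks which of these RNAs differed in level between epithelium labelled WT and epithelium labelled Ythdf1 KO. Values are normalised read counts, meaning reads divided by a size factor per library. The 2 libraries labelled Ythdf1 KO are called KO 1 and KO 2 from here on. Ythdf1 itself was higher in them than in WT: it stood at 1088 in WT 1, 775.4 in WT 2, 1752 in KO 1 and 1737 in KO 2 (log2 difference 0.92, adjusted p = 0.759 in limma-trend, the linear model fitted to all genes, and q = 0.0145 in the authors' deposited table). The deleted part of the gene is not named, so this level does not check the labels, and each direction given is one between labels. Recovered reads on the most abundant transcripts came to between 21686140 and 30951138 per library, and Spearman's correlation across genes lay between 0.829 and 0.848 for every pair of libraries. Differences between libraries of a group were far above counting noise, since the mean chi-square per gene was 59.7 for WT 1 against WT 2 and 98.3 for KO 1 against KO 2. Of 12 markers of colon epithelium, 12 were above 0 in every library, and Epcam, an epithelial adhesion molecule, stood between 29956 and 33790. The summed value of the 10 listed leukocyte markers was 1554 in WT 1, 1220 in WT 2, 994.7 in KO 1 and 646.8 in KO 2, and that of the 11 listed markers of stroma, vessel and nerve was 2307, 4097, 2632 and 1851 in the same order. Lyz2, a macrophage lysozyme, was at 0 in KO 1 and KO 2, and Ptprc, the pan-leukocyte antigen, stood at 666.1 in WT 1, 280.7 in WT 2, 253 in KO 1 and 118.3 in KO 2. In bulk RNA, fewer cells of a type and less RNA per cell cannot be told apart.

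The inhibitor Errfi1 and the ligand Areg are introduced by their promoters, because a script found the same pair of short motifs at nearly the same place in both, while Egfr is shown as a receptor promoter without them. RefSeq's promoter table (GRCm38.p6, the assembly also called mm10) held 8 windows for 7 of the 10 genes, and none for Erbb3, Ereg and Hbegf. The windows searched were the 250 bases before each start. The motifs were the cyclic AMP response element (CRE) TGACGTCA, the AP-1 site TGANTCA, the TATA box TATAAA and the GC box GGGCGG, on both strands. The 150 bases before the start are printed, 5′ to 3′ on the strand of the gene, with every motif match in capitals (the match at the left edge of the Errfi1 main window is cut by that edge, and its other GC boxes overlap). Areg lies at chr5:91139449-91139598 on the plus strand, Errfi1 at chr4:150854920-150855069 (plus) for its main start and chr4:150853646-150853795 (plus) for its upstream start, and Egfr at chr11:16752053-16752202 (plus).
Areg: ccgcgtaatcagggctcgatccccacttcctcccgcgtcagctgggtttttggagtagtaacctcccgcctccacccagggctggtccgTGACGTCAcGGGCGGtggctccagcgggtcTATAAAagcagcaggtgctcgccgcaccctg
Errfi1 main start: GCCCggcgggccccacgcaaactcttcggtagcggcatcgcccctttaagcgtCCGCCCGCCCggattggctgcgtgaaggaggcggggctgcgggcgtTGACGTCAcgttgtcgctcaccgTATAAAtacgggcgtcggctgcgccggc
Errfi1 upstream start: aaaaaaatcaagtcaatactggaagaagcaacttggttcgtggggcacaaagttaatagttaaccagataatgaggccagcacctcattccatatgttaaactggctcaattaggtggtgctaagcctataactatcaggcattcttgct
Egfr: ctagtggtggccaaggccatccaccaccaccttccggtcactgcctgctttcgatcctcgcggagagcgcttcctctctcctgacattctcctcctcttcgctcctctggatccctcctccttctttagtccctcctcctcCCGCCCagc

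The CRE began 61 bases before the start of Areg and 51 bases before the main start of Errfi1, and the TATA box 31 and 28 bases before. Across the table's 32851 windows of the same length, 1.55% held a CRE, 12.4% a TATA box and 0.119% both. No other window of the 7 genes held either motif, and none held an AP-1 site, which was found in 6.75% of all windows. GC boxes were found at Areg, Errfi1, Tgfa, Lrig1 and Egfr, against 32.7% of all windows. The upstream Errfi1 window held none of the motifs searched and had 38% G and C, against 64.8% at the main start. A match describes the letters only, and these libraries hold no measurement of binding.

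Among the receptors no difference between the labelled groups exceeded the spread between libraries. Egfr (gene ID 13649, transcript NM_207655.2, mm10 chromosome 11, 16752203 to 16913907) stood at 1462 in WT 1, 2244 in WT 2, 1658 in KO 1 and 1949 in KO 2. KO 1 and KO 2 lay inside the range of WT. The log2 difference (labelled KO minus WT, on log2(value + 1), as all such differences here) was -0.011 ± 0.28 (SE), with a 95% interval from -0.70 to 0.67 and an adjusted p = 1.00 in limma-trend. Its direction turned without WT 2 (0.30) and without KO 1 (0.11).

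Erbb2 (13866, NM_001003817.1, chromosome 11, 98412484 to 98437716), the preferred partner in receptor pairs, stood at 12824 in WT 1, 12612 in WT 2, 12645 in KO 1 and 9235 in KO 2, so that KO 2 alone lay apart. Its log2 difference was -0.23 ± 0.18 (SE; 95% interval -0.66 to 0.19, adjusted p = 0.816 in limma-trend), and -0.0082 without KO 2. Erbb3 (13867, NM_010153.1, chromosome 10, 128569368 to 128589501), the partner that couples most directly to PI3K, showed the same low library. It stood at 12629 in WT 1, 14780 in WT 2, 14832 in KO 1 and 9969 in KO 2, and its log2 difference of -0.17 ± 0.21 (SE; 95% interval -0.68 to 0.34, adjusted p = 0.88 in limma-trend) became 0.12 without the latter. These 2 receptors were thus lowest in the same library, at a depth there of 11165 and 12052 reads, where counting error is small. The summed epithelial markers were lowest in KO 2 as well (853522, against 992182 to 1094326 in the others). Epcam, 1 of these markers, was instead highest in KO 2 (33790). The part of epithelial content in the Erbb2 and Erbb3 values was not tested.

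**Figure D1:**
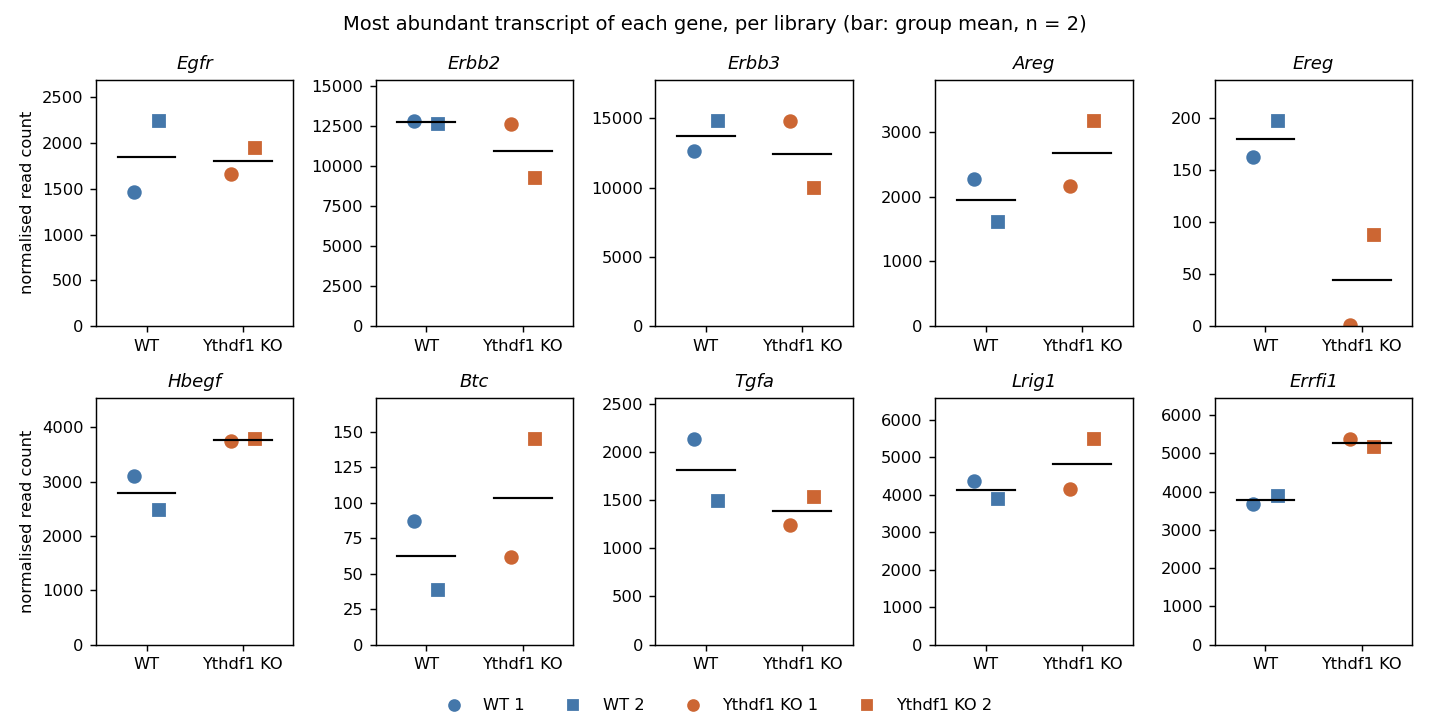
Normalised read count of the most abundant transcript (linear axes from 0) of the 10 genes in each library, with WT in blue, Ythdf1 KO in orange and bars at the means of 2 libraries. For Errfi1 and Hbegf KO 1 and KO 2 lie above WT 1 and WT 2, for Ereg they lie below, and the other 7 genes overlap.

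Egfr was also counted on a second transcript, NM_007912.4 (variant 2), which has the same start and ends 26249 bases earlier in the genome. It stood at 689.8 in WT 1, 850.1 in WT 2, 836.7 in KO 1 and 1156 in KO 2. Relative to the long transcript this was 0.472 in WT 1, 0.379 in WT 2, 0.505 in KO 1 and 0.593 in KO 2, so the ratio was higher in KO 1 and KO 2 than in either WT library. The means were 0.425 ± 0.066 and 0.549 ± 0.063 (SD, n = 2 each), a difference with an exact permutation p = 0.333 (two-sided), the smallest that 2 libraries against 2 can give. The transcripts overlap, and the sources used here do not tell how reads common to both were assigned, so the ratio describes how reads were spread. Summed over both transcripts, Egfr had a log2 difference of 0.11, the opposite sign to that of the long transcript alone, and with TMM scaling factors the long transcript had 0.01.

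**Figure D2:**
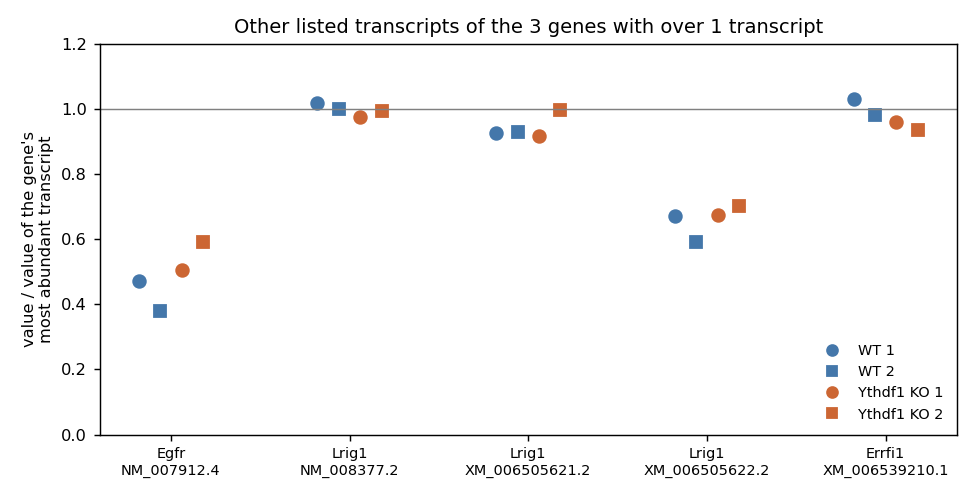
Value of each further listed transcript divided by that of the most abundant transcript of the same gene, per library (linear axis from 0, WT blue, Ythdf1 KO orange). The Egfr ratio lies between 0.379 and 0.472 in WT and between 0.505 and 0.593 in KO 1 and KO 2, and the Errfi1 ratio lies between 0.935 and 1.03.

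The ligands did not move as a group. Of the 5, Hbegf was higher in KO 1 and KO 2 than in either WT library and Ereg was lower, while Areg, Btc and Tgfa overlapped. Of all 23116 genes tested, 14.3% lay above in this way and 21.4% below, and of those with a mean of at least 100, 17.7% and 17.2%. None of the 5 passed an adjusted p of 0.05 in limma-trend, where 0% of all genes did.

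Hbegf (15200, NM_010415.2, chromosome 18, 36504927 to 36515805) encodes heparin-binding EGF-like growth factor, which is released at the cell surface and binds Egfr and Erbb4. It stood at 3104 in WT 1, 2472 in WT 2, 3753 in KO 1 and 3779 in KO 2. KO 1 and KO 2 were close together and above WT 1 and WT 2, and the ratio of the means (2788 ± 447 for WT, 3766 ± 18.7 for KO, SD, n = 2 each) was 1.35. The log2 difference was 0.44 ± 0.20 (SE), with a 95% interval from -0.035 to 0.92 and an adjusted p = 0.759 in limma-trend. DESeq2 on recovered reads gave a log2 difference of 0.45 with an adjusted p = 0.126, and the authors' deposited table q = 0.161.

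Areg (11839, NM_009704.4, chromosome 5, 91139599 to 91148432) encodes amphiregulin, a ligand of Egfr that epithelium makes in response to injury and inflammation and that leukocytes also make. It stood at 2281 in WT 1, 1614 in WT 2, 2167 in KO 1 and 3179 in KO 2, so WT 1 and KO 1 were nearly level and KO 2 was highest. The means were 1948 ± 472 and 2673 ± 716 (SD, n = 2 each), and the log2 difference was 0.45 ± 0.29 (SE; 95% interval -0.25 to 1.15, adjusted p = 0.795 in limma-trend). It was 0.18 without KO 2 and 0.20 without WT 2.

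Ereg (13874, NM_007950.2, chromosome 5, 91074617 to 91093649) encodes epiregulin, which binds Egfr and Erbb4. It stood at 162.3 in WT 1, 196.9 in WT 2, 0.9695 in KO 1 and 87.68 in KO 2, from 144, 195, 1 and 106 reads. Both KO 1 and KO 2 were below WT, and KO 1 was far below KO 2. The single read allows 0.0253 to 5.57 reads (exact 95% Poisson interval, counting error only), and the level in KO 1 was 0.0054 times the WT mean, with an interval from 0.000137 to 0.0301 when that mean is taken as fixed. This interval leaves out the spread between libraries of a group, which was far above counting noise. In KO 2 Ereg was 0.488 times the WT mean. The log2 difference was -3.77 ± 2.12 (SE; 95% interval -8.93 to 1.40, adjusted p = 0.77 in limma-trend) and -1.02 without KO 1, while edgeR and DESeq2 on recovered reads gave -1.99 and -2.01. The summed leukocyte markers given above were lower in the same libraries, though lowest in KO 2, and their part in the Ereg values was not tested. Other genes of the pathway also fell to 1 read in a single library. Erbb4 had 8, 144, 105 and 1 reads in WT 1, WT 2, KO 1 and KO 2, and Adam12 25, 34, 1 and 211. Btc, in contrast, kept at least 38 reads.

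Btc (12223, NM_007568.5, chromosome 5, 91357261 to 91402994), betacellulin, was the other ligand with few reads, between 38 and 175 per library. It stood at 86.79 in WT 1, 38.37 in WT 2, 62.05 in KO 1 and 144.8 in KO 2. WT 1 lay between KO 1 and KO 2, and the interval of the log2 difference, from -2.13 to 3.54, shows how little these counts constrain it. Its log2 difference of 0.71 became 0.10 without KO 2 and 0.13 without WT 2, and 1.36 after quantile normalisation.

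Tgfa (21802, NM_031199.4, chromosome 6, 86195227 to 86275743), transforming growth factor alpha, binds Egfr and is made by differentiated epithelium. It stood at 2135 in WT 1, 1495 in WT 2, 1247 in KO 1 and 1534 in KO 2, where WT 2 and KO 2 were almost level. The log2 difference was -0.37 ± 0.28 (SE; 95% interval -1.05 to 0.31, adjusted p = 0.816 in limma-trend), and -0.11 without WT 1.

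Ereg, Areg and Btc are neighbours on chromosome 5. In RefSeq's annotation the protein-coding genes Epgn, Ereg, Areg and Btc follow each other without another protein-coding gene between them, with gaps of 39.4, 46 and 209 kb. The low Ereg value in KO 1 was not seen at its neighbours. KO 1, which had 1 read of Ereg, held 2235 reads of Areg and 64 of Btc, and Areg there lay within the WT range. Epgn, the fourth ligand of the cluster, stood at 74.39 in WT 1, 0 in WT 2, 57.2 in KO 1 and 0 in KO 2.

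Of the inhibitors, Errfi1 separated the groups and Lrig1 did not. Errfi1 (74155, NM_133753.1, chromosome 4, 150855091 to 150868880) stood at 3669 in WT 1, 3875 in WT 2, 5368 in KO 1 and 5173 in KO 2. Both KO 1 and KO 2 lay above WT 1 and WT 2, and the spread inside each group was small against the gap. The KO mean of 5271 ± 138 was 1.4 times the WT mean of 3772 ± 146 (SD, n = 2 each). The log2 difference was 0.48 ± 0.16 (SE), with a 95% interval from 0.10 to 0.87.

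Whether Errfi1 passed a threshold depended on the tool. In limma-trend its unadjusted p was 0.0218 and its adjusted p = 0.759, and edgeR gave an adjusted p = 0.809. DESeq2 gave an adjusted p = 0.00696, and in the authors' deposited table its q was 0.0125, with a log2 fold change of 0.48. Of the 10 genes Errfi1 was the only one called by either source. On simulated data with 22385 genes tested, DESeq2 called 303 unchanged genes and limma-trend 4, while limma-trend found only 9 of 100 genes changed by a log2 size of 1. No change as small as that of Errfi1 was simulated. DESeq2 called 6.22% of all genes (1.78% higher and 4.44% lower), and in the authors' deposited table the q was under 0.05 for 4.47% (1.24% higher and 3.23% lower). The log2 difference of Errfi1 lay between 0.44 and 0.52 with each library left out in turn.

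The second Errfi1 transcript, XM_006539210.1, starts 1290 bases upstream, close to the start whose promoter held none of the motifs. It stood at 3782 in WT 1, 3808 in WT 2, 5159 in KO 1 and 4838 in KO 2, and the authors' deposited table gave it q = 0.0593. Its ratio to the main transcript was 1.03 in WT 1, 0.983 in WT 2, 0.961 in KO 1 and 0.935 in KO 2, with an exact permutation p = 0.333 (two-sided), again the smallest possible. The transcripts overlap over the whole of the main one, so these values are not independent of those of the main transcript.

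Lrig1 (16206, chromosome 6, 94604529 to 94700250), which promotes the loss of EGF receptors from the membrane, overlapped between the groups. Its transcript with the highest mean was XR_377425.2 (4470), barely ahead of NM_008377.2 (4465), and the values of XR_377425.2 are used. They were 4359 in WT 1, 3875 in WT 2, 4166 in KO 1 and 5482 in KO 2, so KO 2 alone lay above WT. The log2 difference was 0.22 ± 0.20 (SE; 95% interval -0.27 to 0.70, adjusted p = 0.832 in limma-trend), and 0.02 without KO 2. The shortest listed transcript, XM_006505622.2, which on this minus-strand gene lacks 19596 bases at the 5′ side, stood at 0.671, 0.593, 0.674 and 0.701 times the kept one in WT 1, WT 2, KO 1 and KO 2. For NM_008377.2 the authors' deposited log2 fold change was 0.19, and for XM_006505622.2 it was 0.35 (q = 0.729 and 0.464).

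Across the 10 genes, 5 had log2 differences above 0 (45.1% of all genes did) and 5 below, with a median of 0.10 against -0.087 over all genes tested. Among genes with a mean of at least 100, a filter that leaves out Btc, these medians were -0.011 and 0.0027. After quantile normalisation they were 0.02 and 0.00066, so the gap depended on the filter and the scaling. The median of the 10 was 0.26 without KO 1 and 0.06 without KO 2. In limma-trend 0 of the 10 passed an adjusted p of 0.05, where 0 of 23116 genes (0%) passed. At an unadjusted p under 0.05 there was 1 of the 10, Errfi1, where 5.44% of all genes had such a value. The groups did not overlap for 2 genes on the higher side and 1 on the lower side, against 14.3% and 21.4% of all genes, so these counts are near the background. KO 2 was the highest of the 4 libraries for Areg, Hbegf, Btc and Lrig1 and the lowest for Erbb2 and Erbb3. WT 2 was the highest for 2 genes and the lowest for 4.

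**Figure D3:**
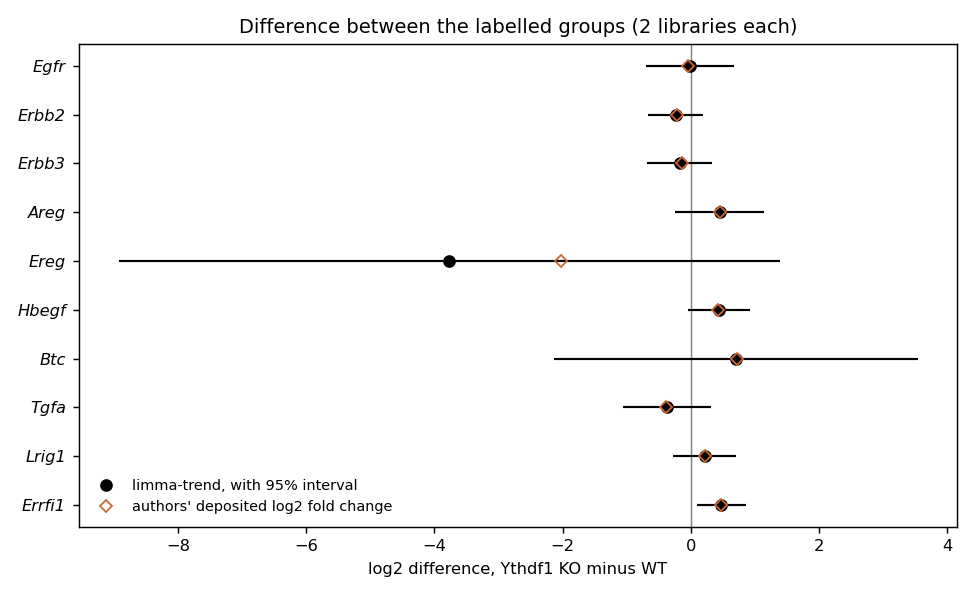
log2 difference of each gene (Ythdf1 KO minus WT) from limma-trend with its 95% interval, and the authors' deposited log2 fold change as open diamonds. The interval of Errfi1, 0.10 to 0.87, is the only one of the 10 that does not reach 0, before adjustment for the number of genes.

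**Figure D4:**
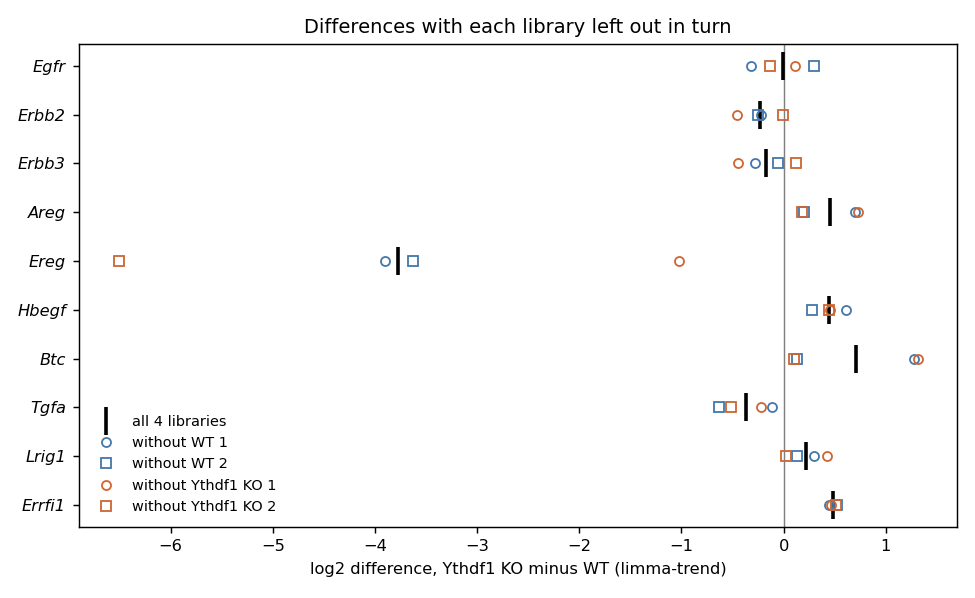
The same log2 difference with each library left out in turn (blue without a WT library, orange without KO 1 or KO 2) and with all 4 (black bar). Errfi1 keeps to 0.44 to 0.52, whereas Ereg ranges from -6.51 to -1.02 and Egfr from -0.32 to 0.30.

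The other genes of the pathway were read from 7 lists with 95 genes, of which 94 were tested. The lists were chosen with earlier results of these data known. None passed in limma-trend (0 of 94, smallest adjusted p = 0.759) or edgeR (0), while 8 had an unadjusted p under 0.05 on the higher side and 2 on the lower side, where 1.92% and 3.52% of all genes did. KO 1 and KO 2 lay above WT 1 and WT 2 for 33 and below for 9, against 14.3% and 21.4% of all genes. Most of the listed genes had a mean of at least 100, and among all such genes the shares were 17.7% and 17.2%. The median log2 difference was 0.19. The authors' deposited table called 4 of the 94, with Rhbdf2, Dusp6 and Fos higher and Araf lower under the KO label, where it called 4.47% of all genes, so this count is at the background.

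Feedback inhibitors and genes of receptor turnover, the list closest in role to Errfi1 and Lrig1, had a median log2 difference of 0.31. The median over all genes tested was -0.087. Among genes with a mean of at least 100 it was 0.0027, so about as many of them lay above 0 as below. Of the list's 24 genes, 18 were above 0, where 45.1% of all genes were. For 13 of them KO 1 and KO 2 lay above WT and for 3 below, where 14.3% and 21.4% of all genes did. None of the 24 had a mean under 100, and among genes with a mean of at least 100 these shares were 17.7% and 17.2%. Dusp6, the phosphatase that switches off ERK in the cytoplasm, stood at 1886 in WT 1, 1578 in WT 2, 2681 in KO 1 and 2569 in KO 2 (q = 0.0359 in the authors' deposited table). Dusp1, a nuclear phosphatase of MAP kinases, stood at 3795 and 3863 against 5142 and 4889. Spry4, which dampens signalling to RAS, had 166.8 and 235.2 against 402.3 and 529.4. In each of these 3 the groups did not overlap, and all had an adjusted p = 0.759 in limma-trend. For Dusp1 and Spry4 the q in the authors' deposited table was 0.0625 and 0.115. With each library left out in turn, the list's median lay between 0.26 and 0.34, and after quantile normalisation it was 0.25.

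Transcriptional targets of the pathway had a median of 0.22, with 11 of 12 above 0, where 45.1% of all genes were. The median over all genes with a mean of at least 100 was 0.0027. Fos, the immediate early transcription factor, stood at 24401 in WT 1, 20792 in WT 2, 30032 in KO 1 and 31337 in KO 2 (q = 0.00851 in the authors' deposited table, adjusted p = 0.759 in limma-trend). Etv4, an ETS factor induced by ERK, had 286.3 and 249.4 against 510.9 and 587.3, and Ccnd1, cyclin D1, 1348 and 1308 against 1707 and 1740. Their q in the authors' deposited table was 0.0896 and 0.301. Of the 12 targets, 4 lay above both WT libraries and 0 below, and the other 8 overlapped. Of all genes 14.3% lay above and 21.4% below. Of those with a mean of at least 100, as all 12 had, 17.7% and 17.2% did. The median of this list was -0.00095 without WT 2, with 6 of 12 genes above 0, and 0.50 without WT 1, so it moved with the WT library left out.

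Genes that release the ligands from the membrane lay on both sides, and of 13 tested 4 were above WT in KO 1 and KO 2 and 2 below, where 14.3% and 21.4% of all genes were. The median of -0.027 had no settled sign, since it was 0.27 without KO 1, 0.13 without KO 2 and 0.12 after quantile normalisation. Rhbdf2 (iRhom2), which brings the main sheddase Adam17 to the cell surface, stood at 1094 in WT 1, 949 in WT 2, 1822 in KO 1 and 1544 in KO 2, with q = 0.0373 in the authors' deposited table and an adjusted p = 0.759 in limma-trend. Rhbdd1, a rhomboid protease, had 702.2 and 957.1 against 369.4 and 464.9 (q = 0.0662 in the authors' deposited table). Timp3, an inhibitor of Adam17, had 560.2 and 439.2 against 677.7 and 1211 (q = 0.172 there). The regulator of the sheddase and its inhibitor thus stood on the same side.

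Adaptors that link the receptor to RAS had a median of 0.21, with 5 of 14 above both WT libraries and 1 below. Of all genes 14.3% lay above and 21.4% below, and at a mean of at least 100, which all 14 had, 17.7% and 17.2%. The adaptor median was 0.016 without WT 1 and 0.14 after quantile normalisation. Gab2, a docking protein, had 614.3 and 670.4 in WT 1 and WT 2 against 1316 and 947.9. Sos1, the exchange factor that loads RAS, had 1611 and 1667 against 2109 and 2398. Their q in the authors' deposited table was 0.0796 and 0.146. For Nck1, another adaptor, the groups overlapped (396.8 and 281.7 against 825 and 388.8).

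The RAS-MAPK cascade had 2 of 14 genes above both WT libraries and 3 below, at the shares of all genes (14.3% and 21.4%). All 14 had a mean of at least 100, where the shares were 17.7% and 17.2%. The list's median of 0.20 was 0.013 without WT 2, 0.067 without KO 2, 0.091 without WT 1 and 0.11 after quantile normalisation. Araf, a RAF kinase, stood at 2296 in WT 1, 2693 in WT 2, 1510 in KO 1 and 1469 in KO 2, a ratio of 0.597 (q = 0.00528 in the authors' deposited table, adjusted p = 0.759 in limma-trend). Rras2, a RAS relative, lay the other way, with 729.3 and 1077 against 1474 and 1532 (q = 0.106 in the authors' deposited table).

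On the PI3K-AKT branch 4 of 11 genes lay above both WT libraries and 0 below, where 14.3% and 21.4% of all genes did. All 11 had a mean of at least 100, where the shares were 17.7% and 17.2%. The list's median was 0.16, and it was 0.043 without KO 1 and 0.083 after quantile normalisation. Mtor, a growth kinase, stood at 3605 in WT 1, 4182 in WT 2, 4430 in KO 1 and 4435 in KO 2. Its q in the authors' deposited table was 0.596. For Akt1, the kinase downstream of PI3K, the groups overlapped. The remaining receptor and ligands (Erbb4, Egf, Epgn and the neuregulins) had 4 of 6 tested genes at a mean under 100, and among the better measured Egf stood at 455.4 and 443.2 against 675.7 and 268. Nrg2, a ligand of Erbb3 and Erbb4, had 519.6 and 157.5 against 59.14 and 361.5, with overlap.

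**Figure D5:**
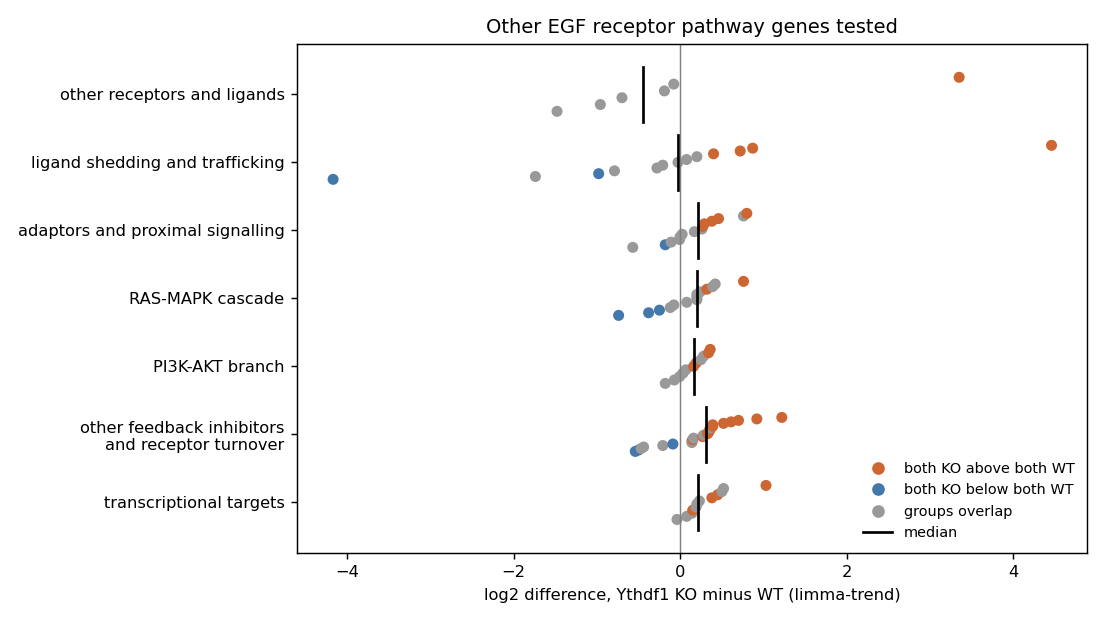
log2 difference (Ythdf1 KO minus WT, limma-trend) of each tested gene of the 7 pathway lists, coloured by whether KO 1 and KO 2 lie above, below or among the WT libraries, with black bars at list medians. The feedback list has a median of 0.31, with 13 of 24 genes above both WT libraries. There lie 14.3% of all genes, and 17.7% of those with a mean of at least 100.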

How the data were processed

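Per the submitters' processing notes the build was mm10 and the tools included deepTools 3.3.0, HOMER 4.10, MACS2 2.1.0, SAMtools 1.3.1, Bowtie2 2.2.5 and CASAVA 1.8. Neither the counting program nor its use of strand is given in the sources used here. The deposited signal is a normalised read count per RefSeq transcript: 100% of values in each library were whole multiples (within 0.001) of the value of 1 read. The authors deposited a log2 fold change, p-value and q-value per transcript. No transcript with a mean under 11.6 is listed.

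For each gene the transcript with the highest mean was kept, a gene was tested where 2 or more libraries reached a value of 1 (23116 of 25796), and the model was limma-trend (limma 3.58.1, robust, R 4.3.3) on log2(value + 1), with Benjamini-Hochberg adjustment over all genes. These differences are between means of log2(value + 1), which for genes with a library near 0, such as Ereg, can lie far from the log2 ratio of the means. Alternatives used edgeR 4.0.16 and DESeq2 1.42.0 on recovered reads, other scalings, filters and pseudocounts, and single libraries left out. The script was tested on simulated data, with genes changed by a log2 size of 1 or 2 and a spread estimated from these libraries. Of 100 genes changed by 1, limma-trend found 9, edgeR 8 and DESeq2 19. Of 100 changed by 2 they found 40, 46 and 50, and they called 4, 19 and 303 unchanged genes, in the same order. Transcript lengths were not used here, so levels are not compared between genes. The genes and pathway lists were chosen with earlier results of these data known. From each list the text names the 3 tested genes with the smallest unadjusted p at a mean of at least 100 (some are not reported here), and Epgn was added after its values were seen.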

Additional observations from a re-analysis of the deposited data

How the results depend on the processing

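Over all genes, 0 passed in limma-trend, with 1257 at an unadjusted p under 0.05, and 0 passed in edgeR, with 1258. Without a variance trend 524 passed, with DESeq2 1438, and 1152 had a q under 0.05 as deposited by the authors. Leaving out 1 library gave 0 to 36, the last without Ythdf1 KO 1 (2 without WT 1, 6 without WT 2). There the lone library of a group is assumed to vary like the others. Of the 10 genes, 1 (Errfi1) was called by DESeq2 and by the authors' table, and 0 with any single library left out. Of the 94 pathway genes, 5 were called by DESeq2 (6.22% of all genes), 4 by the authors' table (4.47% of all genes) and 0 with any library left out. Signs turned for Egfr with summed transcripts (0.11), with TMM factors (0.01) and within a range of -0.32 to 0.30 over libraries left out, and for Erbb3 (-0.45 to 0.12), Nrg2 (-2.26 to 0.34), Akt1 (-0.058 to 0.62) and Egf (-0.74 to 0.59, and 0.092 in edgeR, 0.088 in DESeq2 and 0.07 in the authors' table). The ratio of Lrig1 transcript XM_006505621.2 to the kept one, labelled KO over WT, was 0.989 to 1.07 over libraries left out, the lowest without Ythdf1 KO 2. The cause was not tested. With the replicate number as a replicate block 0 genes passed, 0 of them among the 10 or the pathway genes. Same-numbered libraries did not deviate together (r = -0.00795 across 23116 genes), so the numbers were not taken as pairs. Of 169 alternative values for the 10 genes, 162 kept their sign and their side of the threshold, and Errfi1 passed in 2. Depth limits Ereg and Btc, with 1 to 195 reads per library. Btc gave no value under the filter on a mean of 100.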
